A study of Mus musculus with 15 samples.

Results

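Single autosomal CG dinucleotides that carried many reads for 5-hydroxymethylcytosine (5hmC) and many reads for unmodified CG (uCG) were examined in E14TG2a cells, a mouse embryonic stem cell (mESC) line. They were selected on the deposited counts: a CG was taken when both 500-ng hmTOP-seq replicates held 8 to 99 reads and the 3 uTOP-seq replicates, both strands added, held 21 to 200. This gave 99031 of 20383623 autosomal CGs, or 0.486%. The counts of these 5 libraries chose the CGs, and are therefore described below without a test.

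In hmTOP-seq the enzyme BGT places an azide-bearing glucose on 5hmC, an oligonucleotide is clicked onto it, and a polymerase starts from that oligonucleotide, so that reads begin at or beside the labeled CG. In uTOP-seq a methyltransferase tags CGs that carry no modification, and reads are made in the same way. Labeled hmTOP-seq libraries were made from 500, 50 and 5 ng of DNA of these cells (2 technical replicates each), each input had 2 control libraries that skipped BGT, and uTOP-seq had 3 replicates from 300 ng. All libraries came from E14TG2a cells kept on gelatin with serum and LIF. No other genotype or treatment was studied, so that the p-values below measure the spread between chromosomes of 1 cell line and not between cultures. Labeled libraries held 14884939 to 32502791 reads, uTOP-seq libraries 20120568 to 28412885 and control libraries 3409 to 10072.

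5hmC is made from 5-methylcytosine by the TET dioxygenases, can be oxidized further and replaced by an unmodified C, and is abundant in mESCs and in neurons. It is known to lie mainly in the bodies of genes and at enhancers, while CGs of CG islands, the CG-rich stretches at most promoters, are mostly unmodified. Shores, the borders of such islands, are known for variable methylation. The libraries were made from the DNA of many cells, and a CG with reads of both kinds may carry both marks in different cells, on different alleles or on opposite strands. These cases cannot be told apart here.

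The stretches with the most such CGs show how the sites lie in the sequence. Stretches that overlap a UTR were left aside, and 1 autosome was not searched. The 1 richest stretch of the rest is given, and, after the 3 richest, the next in which every selected CG was exonic, intronic and outside islands and shores, in a shore, or upstream of a gene and not exonic. All are plus-strand sequences of GRCm38, and capitals mark the selected CGs.
Chromosome 17 island, chr17:39844747-39845007: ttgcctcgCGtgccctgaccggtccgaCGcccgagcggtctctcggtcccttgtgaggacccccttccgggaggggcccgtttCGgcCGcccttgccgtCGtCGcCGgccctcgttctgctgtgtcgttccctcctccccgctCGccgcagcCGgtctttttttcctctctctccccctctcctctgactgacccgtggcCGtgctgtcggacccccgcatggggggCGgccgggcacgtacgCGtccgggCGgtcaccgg
Daxx exon, chr17:33911773-33911991: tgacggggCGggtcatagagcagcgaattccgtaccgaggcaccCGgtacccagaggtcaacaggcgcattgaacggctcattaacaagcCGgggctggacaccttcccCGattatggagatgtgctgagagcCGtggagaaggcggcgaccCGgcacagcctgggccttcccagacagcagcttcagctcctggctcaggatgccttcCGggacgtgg
Rab11fip4 intron, chr11:79643994-79644158: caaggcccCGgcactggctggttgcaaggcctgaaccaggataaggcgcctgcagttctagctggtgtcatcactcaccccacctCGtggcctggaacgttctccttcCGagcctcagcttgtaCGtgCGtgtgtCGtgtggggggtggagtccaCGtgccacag
Hoxa6 shore, chr6:52208295-52208547: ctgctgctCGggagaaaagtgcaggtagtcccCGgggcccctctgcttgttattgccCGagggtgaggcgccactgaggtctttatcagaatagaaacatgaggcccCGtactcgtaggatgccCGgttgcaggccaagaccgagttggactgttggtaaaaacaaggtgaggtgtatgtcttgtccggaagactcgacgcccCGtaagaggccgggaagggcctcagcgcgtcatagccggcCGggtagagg
Gm10295 upstream, chr7:71351515-71351673: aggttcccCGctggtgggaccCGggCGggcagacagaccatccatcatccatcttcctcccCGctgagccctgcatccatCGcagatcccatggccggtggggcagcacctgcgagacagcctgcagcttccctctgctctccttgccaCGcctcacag

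The chromosome 17 island stretch held 13 selected CGs among 32 CGs, lay in the lincRNA Gm26917 1345 bp from an annotated rRNA gene, and had no protein-coding gene over it. Its 13 CGs had 13 to 77 reads in 500-ng replicate 1 and 9 to 71 in replicate 2, 3 to 53 and 4 to 50 at 50 ng, and 20 to 79, 22 to 67 and 12 to 50 in the 3 uTOP-seq replicates. Its mean of 36.1 and 33.8 reads at 500 ng was above that of all selected CGs (20.9 and 19.6). These 13 CGs also had 3 control reads at 500 ng against 909 labeled ones, or 3.30 per 1000, where all selected CGs together had 0.0754 per 1000. Most of the other CGs of this stretch were left out by a uCG sum above 200 and not by few reads. That at position 39844963, for example, had 300, 244 and 234 uCG reads in the 3 replicates. The selected CGs are thus not those with the most uCG reads there. The next richest stretch, with 12 of 27 CGs, lay in an intron of Cdk8 (chr5:146261057-146261348), with all 12 inside a CG island. Of these, 1 lay in a word of 32 bases found more than once in the assembly. The third, with 11 of 17, lay in the processed pseudogene Gm42642 on chromosome 6, where 4 of the 11 lay in such words. Reads of near-identical copies could be placed at such loci, and their counts are uncertain.

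The Hoxa6 stretch held 7 selected CGs of 17, all coding and at most 416 bp outside an island, where the gene models Hoxa3 and Gm28308 overlap it. Hoxa6 encodes a homeodomain factor of the anterior-posterior axis. Its CGs had 15 to 47 and 10 to 60 reads in the 500-ng replicates, 0 to 51 and 4 to 27 in the 50-ng ones, 0 to 85 and 0 to 63 with 5 ng, and 5 to 24, 1 to 17 and 0 to 19 uCG reads. The 7 CGs in the coding sequence of Daxx, a histone H3.3 chaperone, lay inside an island and within 208 bp of its edge, with 11 to 21 and 9 to 24 reads at 500 ng. The 7 of 9 CGs in an intron of Rab11fip4, an effector of the vesicle GTPase Rab11, had 16 to 41 and 11 to 34 reads, and lay 16267 bp or more from an island. The 6 of 8 CGs upstream of the gene model Gm10295 had 17 to 49 and 15 to 56 reads. No control read at 500 ng fell on the selected CGs of these 4 stretches.

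Among the selected CGs the median count was 18 and 17 reads in the 500-ng replicates, and the median uCG sum was 27, with quartiles of 23 and 33. A read in each of the 3 uTOP-seq replicates was found at 97.99% of them. Just inside and outside that limit, 10532 CGs had 21 uCG reads and 11411 otherwise qualifying CGs had 20, of which 11.8% each were in shores. At the lower 5hmC limit 10355 CGs had 8 reads in the lower replicate and 11549 had 7, and these had a mean of 7.04 and 6.17 reads in 50-ng replicate 1. At the upper limits, 18 CGs had a uCG sum at most 19 reads below 200 or at it and 347 were above 200, and 68 had 90 to 99 reads in the higher 500-ng replicate against 138 above 99.

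Both marks were found at the same CG more often than independent placement would give. Of 703216 CGs within the 5hmC limits and 422253 within the uCG limits, 14567 would have been shared, and 99031 were, 6.80 times as many. The selected CGs made up 14.1% of the first group and 23.5% of the second. With the 50-ng libraries in place of the 500-ng ones, 47548 CGs were within both limits and the ratio was 7.43. The log2 odds ratio per autosome was 3.30 ± 0.24 (SD, n = 19 autosomes) at 500 ng and 3.26 ± 0.21 at 50 ng. The ratio was lower when the comparison was made among like CGs: 4.87 within classes of the same flanking bases, 3.32 within classes of CG and GC content, 2.47 within classes of both and of repeat sequence, 3.52 within 100-kb windows and 3.17 within 10-kb windows. It stayed above 1 in each of these. None of these classes held read coverage equal, and the expected numbers count all autosomal CGs. Of those 33.3% and 34.8% had a read in the 500-ng replicates, and the part of shared coverage was not tested.

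**Figure D1:**
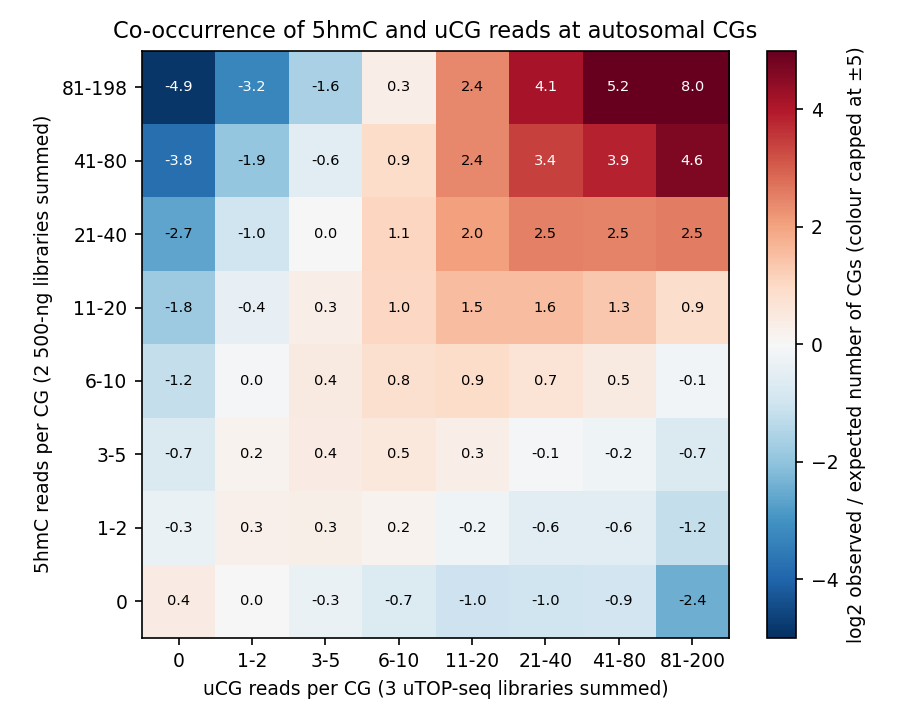
Log2 of the observed over the expected number of autosomal CGs for each combination of summed 500-ng 5hmC reads (vertical axis) and summed uCG reads (horizontal axis); colour is capped at 5. CGs with many reads of both kinds are in excess in the upper right, and CGs with many reads of 1 kind and none of the other are depleted.

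The ratio differed between kinds of sequence. It was 21.7 in intergenic CGs (50 kb or more from any protein-coding gene) and 17.2 in repeats, 6.43 in introns, 4.94 in 3' UTRs, 2.87 in CG islands, 2.88 in exons and 2.15 in shores. By CG content it ran from 26.8 where a CG was the only one in 200 bp to 2.34 at 11 to 15 CGs, and was 3.50 at 16 or more. The number of selected CGs ran otherwise: 15.1 per 1000 CGs in shores, 11.5 in shelves, 11.4 in exons, 5.37 in introns, 3.41 in islands and 1.37 each in intergenic sequence and repeats. Thus intergenic sequence and repeats, with the fewest selected CGs per CG, had the highest ratio of these elements, and shores, with the most, the lowest. The ratio can go higher where CGs within the limits are rarer, here and for the contexts and chromosomes below. Of CGs within the 5hmC limits, 10.1% were selected in intergenic sequence, 9.71% in repeats, 21.2% in shores and 25.2% in islands. Of CGs within the uCG limits these shares were 29.4%, 24.2%, 15.3% and 3.88%.

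The same CGs were well covered in libraries that had no part in their selection. Both 50-ng replicates had a read at 86.6% of the selected CGs, against 9.78% of all autosomal CGs. At 5 ng this was 23.9% against 1.29%. At least 8 reads in both 50-ng replicates were found at 40.6% of them, against 1.52% of all. The mean was 12.4 and 11.7 reads in the 50-ng replicates and 7.57 and 7.73 in the 5-ng replicates, where 47.0% and 45.9% of the selected CGs had any read. Over all autosomal CGs these means were 1.12, 1.07, 0.722 and 0.741.

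For comparison there were 2 classes: 40484 CGs within the 5hmC limits with 0 uCG reads, called 5hmC-only, and 117180 within the uCG limits with 0 reads in both 500-ng replicates, called uCG-only. A read in both 50-ng replicates was found at 72.7% of 5hmC-only and 0.858% of uCG-only CGs. Selected CGs had 0.596 reads at 50 ng (both replicates) per 500-ng read and 5hmC-only CGs 0.537, and at 5 ng 0.378 and 0.341. The log2 ratio of the classes was 0.15 ± 0.03 at 50 ng and 0.16 ± 0.06 at 5 ng (SD, n = 19 autosomes). Since the 500-ng counts in the denominator chose both classes, and their means differ (20.9 against 14.2 in replicate 1), these ratios are a description with no test. At equal 500-ng sums they were 0.23 ± 0.03 and 0.24 ± 0.06. With the limits put on 500-ng replicate 2 alone they were 0.39 and 0.39, and on replicate 1 alone 0.39 and 0.38.

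**Figure D2:**
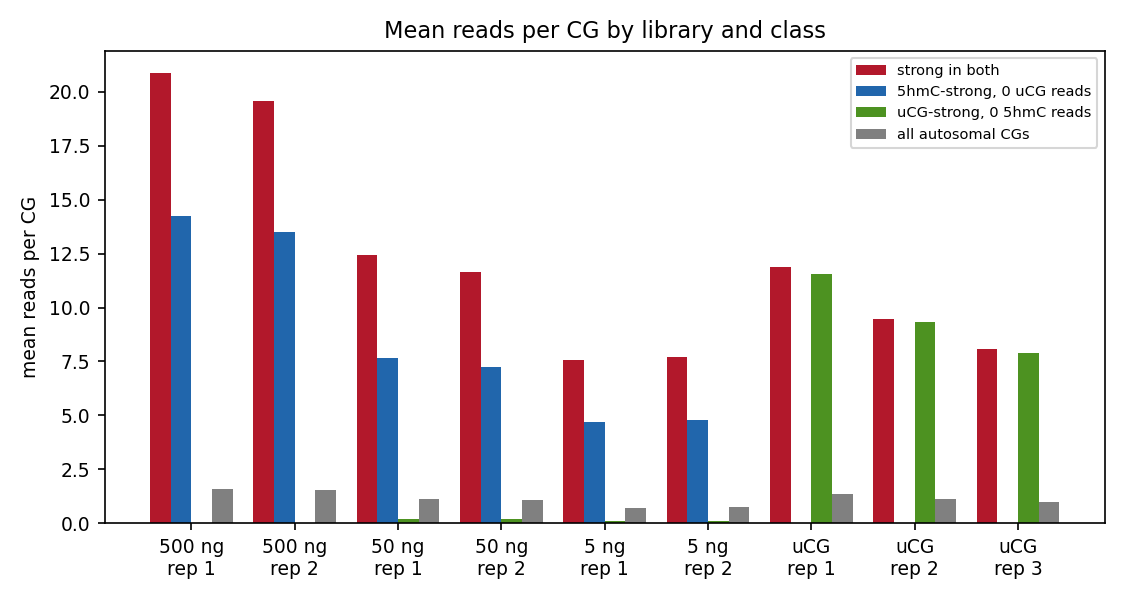
Mean reads per CG in each labeled library for CGs strong in both marks, both comparison classes and all autosomal CGs. The bars at 500 ng and for uCG are fixed by the selection, and those at 50 and 5 ng are not: there the selected CGs have 7.57 to 12.4 reads and uCG-only CGs at most 0.188.

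Control libraries gave few reads at these CGs. Of the control reads at 500 ng, 149 of 9946 (1.498%, exact binomial 95% interval 1.27 to 1.76) and 153 of 9225 (1.66%, 1.41 to 1.94) fell on selected CGs, which took 6.43% and 6.14% of the labeled reads. At 50 ng these were 34 of 3386 and 25 of 3388 control reads, and at 5 ng 54 of 3713 and 29 of 4723. The selected CGs were 0.486% of CGs. Control reads were more frequent there at 500 ng and in replicate 1 at 50 and 5 ng (intervals from 0.696% and 1.09%). In replicate 2 at 50 ng (0.738%, 0.478 to 1.09) and at 5 ng (0.614%, 0.412 to 0.881) the interval included 0.486%. The 5-ng control reads lay on only 11 and 7 selected CGs, with up to 20 and 14 reads on 1 CG. The intervals cover counting error only.

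Genic elements and the surroundings of CG islands held more of the selected CGs than of other CGs, although the median distance to an island edge was 15381 bp. Shores, the 2 kb on each side of an island, held 13.9% of them and 4.43% of all other autosomal CGs, with an odds ratio of 3.43 that was above 1 on all 19 autosomes (log2 1.78 ± 0.22, SD). Exons held 19.6% against 8.31% (odds ratio 2.60, log2 1.38 ± 0.23), shelves, 2 to 4 kb from an island, 6.69% against 2.81% (2.36), the 2 kb downstream of genes 8.28% against 3.77% (2.14) and 3' UTRs 3.44% against 1.67% (2.003). The 2 kb upstream held 8.46% against 5.70% (1.49), above 1 on all 19 autosomes as well. CG islands (3.74% against 5.34%, odds ratio 0.659), intergenic sequence (7.47% against 26.5%, 0.235) and repeats (6.94% against 24.7%, 0.232) were depleted on all 19. For each of these the adjusted p was 1.25e-05 in a two-sided permutation test that flips the signs of autosomes, of which 1e-05 is the smallest p before adjustment.

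Introns held the largest number, 43100, but at 43.5% against 39.3% their odds ratio was 1.17 (log2 0.23 ± 0.18, above 0 on 18 of 19 autosomes, adjusted p = 3.51e-05, permutation test). For 5' UTRs, 1.81% against 1.90%, it was 0.957 and did not differ from 1 (log2 -0.06 ± 0.37, adjusted p = 0.469, permutation test). They were depleted past the threshold at 15 uCG reads (0.820), with at least 5 uCG reads on each strand (0.888), without repeats (0.787), without uTOP-seq replicate 3 (0.893) and with 1 transcript per gene (0.759). Measured against CGs that had a read in both 500-ng replicates and a uCG read, the direction turned for islands (1.78), 5' UTRs (1.90) and introns (0.924), and the others kept theirs (upstream regions 1.59, shores 2.06, exons 1.66, shelves 1.36, downstream regions 1.33, 3' UTRs 1.24, repeats 0.523 and intergenic sequence 0.494). With stricter islands the odds ratio of islands was 0.339. With repeats left out of all classes the intron odds ratio was 1.04 (adjusted p = 0.152, permutation test).

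**Figure D3:**
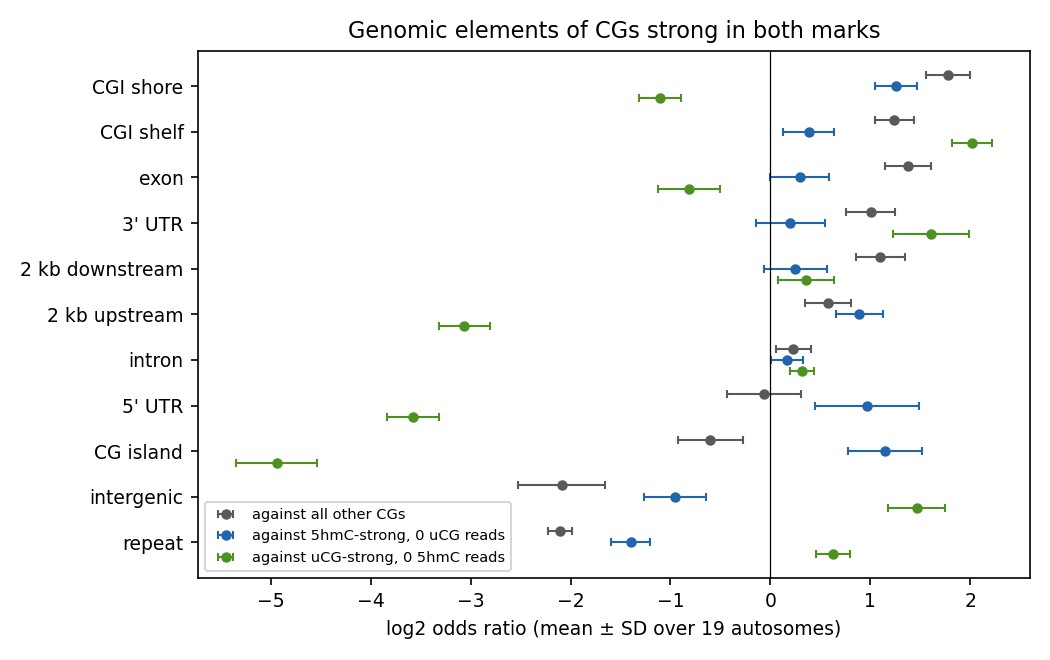
Log2 odds ratio of each element for CGs strong in both marks against all other CGs, against 5hmC-only and against uCG-only CGs; points are means and bars the SD over 19 autosomes. Shores, exons and shelves lie above 0 against all other CGs, and islands, 5' UTRs and upstream regions lie above 0 against 5hmC-only and far below 0 against uCG-only CGs.

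Set against 5hmC-only CGs, the selected CGs were nearer to promoters. Islands had an odds ratio of 2.21, 5' UTRs of 1.95, upstream regions of 1.85 and shores of 2.40, where 13.9% of the selected CGs stood against 6.38%. Repeats (0.379) and intergenic sequence (0.516) were less frequent. Exons (1.22), 3' UTRs (1.15), downstream regions (1.19), introns (1.12) and shelves (1.31) differed less, on 13 to 18 of 19 autosomes in the same direction, with adjusted p of 1.25e-05 to 0.0245 in the permutation test. Without repeats exons, 3' UTRs and downstream regions no longer differed (odds ratios 1.08, 1.05 and 1.11, adjusted p = 0.118, 0.476 and 0.0643, permutation test).

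Set against uCG-only CGs, the selected CGs were away from promoters. Islands held 52.8% of uCG-only CGs, an odds ratio of 0.0325, and upstream regions 42.8%, an odds ratio of 0.120. For 5' UTRs the odds ratio was 0.0840. Shelves (4.05), 3' UTRs (3.04), intergenic sequence (2.76), repeats (1.54), downstream regions (1.28) and introns (1.24) were more frequent among the selected CGs, and shores (0.464) and exons (0.567) less. Without uTOP-seq replicate 3 the intergenic odds ratio was 1.81, and at 15 and 30 uCG reads it was 1.53 and 4.29. Without 500-ng replicate 2 that of islands was 0.0517. The adjusted p was 1.25e-05 for all of these but downstream regions, with 0.000112 (permutation test).

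The step from 5hmC without uCG to both marks was gradual. Among the CGs within the 5hmC limits, shores held 6.38% at 0 uCG reads, 7.25% at 1 to 5, 8.40% at 6 to 10, 10.2% at 11 to 20, 13.7% at 21 to 50 and 18.97% at 51 to 200. Over the same classes repeats fell from 16.5% to 5.73% and the median distance to a TSS from 19884.5 to 9602 bp, while the mean 500-ng count rose from 13.9 to 24.7 reads. Coverage in both assays moved with these shares, and its part was not tested.

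At the edge of CG islands the selected CGs changed steeply. They were 0.707 per 1000 CGs at 500 to 1000 bp inside an island and 1.10 at 200 to 300 bp inside, and rose to 8.81 in the last 50 bp inside, 13.9 in the first 50 bp outside and 17.8 ± 4.29 (SD, n = 19 autosomes) at 500 to 750 bp outside. Beyond this they were 12.6 at 1.5 to 2 kb and 11.4 at 2 to 3 kb. The uCG-strong CGs were most frequent at 0 to 50 bp outside (5890 of 28484 CGs) and the 5hmC-strong CGs at 750 to 1000 bp outside (8335 of 98858). The selected CGs, by the rule the overlap of these sets, had their highest value between both. From 200 to 1000 bp outside they were 16.4 to 17.8 per 1000, with an SD of 4.09 to 4.76, so that the place of the maximum is not resolved. The 3704 selected CGs within islands lay at a median of 65 bp from the edge, against 186 bp for all island CGs and 143 bp for uCG-only CGs.

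Around the TSS of protein-coding genes they formed a trough. They were 4.83 ± 1.10 per 1000 CGs in the 250 bp upstream and 5.16 ± 1.21 in the 250 bp downstream, 11.01 at 750 to 1000 bp upstream and 11.6 at 1 to 2 kb downstream, and 7.25 at 5 to 10 kb upstream against 9.40 at 5 to 10 kb downstream. The median distance to the nearest TSS was 11576 bp for selected CGs, 34765 for all other CGs, 19884.5 for 5hmC-only and 367 for uCG-only CGs. With the TSS of all annotated transcripts the median of the selected CGs was 4844 bp. The log2 ratios of these medians were -1.49 ± 0.31, -0.72 ± 0.18 and 5.09 ± 0.38 over the autosomes (adjusted p = 1.25e-05 for each, permutation test). Within 1 kb of a TSS were 11.7% of selected CGs, 5.75% of 5hmC-only and 72.5% of uCG-only CGs.

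**Figure D4:**
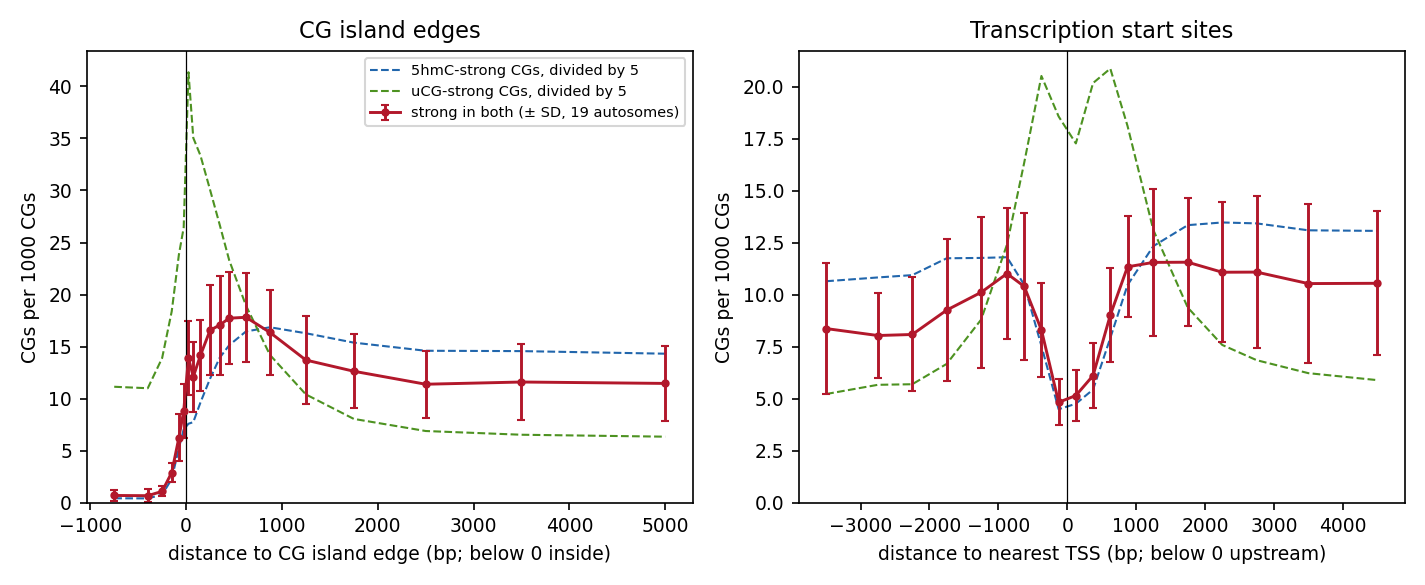
CGs strong in both marks per 1000 CGs by distance to the nearest CG island edge (left) and TSS (right), with the SD over 19 autosomes; dashed lines give all 5hmC-strong and all uCG-strong CGs divided by 5. The selected CGs peak at 17.8 outside the island edge and dip to 4.83 at the TSS.

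The selected CGs shared sequence features that the selection did not use. There were 5.70 ± 0.21 CGs in the 200 bp around them (SD over autosomes), against 4.62 for all other CGs and 12.5 for uCG-only CGs, and the GC share was 55.2%, against 47.2% and 59.4% (adjusted p = 1.25e-05 for each of these differences, permutation test). Against 5hmC-only CGs the GC share was 1.19 ± 0.34 percentage points higher. The difference in CG content was -0.28 ± 0.19 CGs (adjusted p = 5.73e-05, permutation test), and it turned to 0.0615 and 0.0853 (adjusted p = 0.093 and 0.0182, permutation test) with the limits on 500-ng replicate 2 or 1 alone.

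A C stood before the CG at 52.5% of the selected CGs and a G after it at 54.0%, against 26.8% and 26.7% of all autosomal CGs. The palindrome CCGG made up 26.0% of selected CGs, 19.8% of 5hmC-only, 17.4% of uCG-only and 7.45% of all CGs. At 16.9 selected CGs per 1000 it was the richest of the 10 contexts, and TCGA, with 1.04, was the poorest. The mean counts of both assays were also highest and lowest in these contexts. The mean over all CCGG sites was 3.36 reads at 500 ng and 5.14 uCG reads, and over all TCGA sites 0.592 and 2.34. The part of the base context in read counts was not tested beyond the classes of flanking bases above. Within CCGG sites alone the selected CGs were 3.32 times as many as independent placement gives, and within TCGA sites 20.3 times.

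Most of the selected CGs lay in sequence that occurs once. Of the 32-base words centred on them, 98.5% were found at 1 place in the assembled chromosomes, against 91.3% for 5hmC-only, 99.2% for uCG-only and 85.5% for every 200th autosomal CG. Reads are placed with more certainty in such sequence. The hmTOP-seq reads were kept only with a mapping quality of at least 30, at 5hmC-only CGs as well. Selection by read counts may favour such sequence, and the part of this filter in these shares was not tested. Outside repeats 0.382% of selected CGs were in a word found more than once. This was 1.86% for 5hmC-only, 0.591% for uCG-only and 2.62% for the sampled CGs.

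uCG reads were divided by strand in the files, and this division took no part in the selection. At 14.8% of selected CGs all uCG reads were on 1 strand, against 30.04% of uCG-only CGs. The squared strand difference over its counting variance, which is 1 under counting error alone, was 11.9 ± 0.395 for selected and 16.2 ± 0.218 for uCG-only CGs (log2 ratio -0.45 ± 0.05, adjusted p = 1.25e-05, permutation test). The plus-strand share of a CG correlated between replicates with r of 0.638 to 0.667 over 99031 selected CGs, which share sequence and DNA. Over 117180 uCG-only CGs r was higher, at 0.774 to 0.795. For CGs with no other CG within 20 bp the log2 ratio was -0.17. At least 5 uCG reads on each strand, a limit that itself removes the strongest imbalance, gave 5.05 for the selected CGs. CGs of like CG content differed less than the classes as a whole: at 1 CG per 200 bp the values were 10.5 and 10.4, and at 11 or more 16.2 and 18.4.

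Neighbouring CGs often shared 5hmC and less often both marks. When the next CG was 2 bp away from a selected CG it was 5hmC-strong in 54.1% of cases, uCG-strong in 4.17% and strong in both in 3.38%. At 11 to 20 bp these shares were 35.4%, 18.2% and 10.8%, the highest for both marks together, and beyond 200 and up to 500 bp 10.4%, 8.01% and 2.90%. Over any CGs with a neighbour at these distances 0.241%, 0.844% and 0.161% were strong in both. At 2 bp 2.72% of them were 5hmC-strong and 2.51% uCG-strong, and at 11 to 20 bp 5.92% and 3.904%. The neighbour at 2 bp had a mean of 13.0 reads at 500 ng and of 12.1 uCG reads.

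Over all CG pairs 2 bp apart r of log2(reads + 1) was 0.776 for 5hmC at 500 ng, 0.637 at 50 ng and 0.438 for uCG, and beyond 200 and up to 500 bp it was 0.251, 0.161 and 0.187. The uCG value was highest at 11 to 20 bp (0.472). For pairs with a selected CG, whose range is narrowed by the limits, r at 2 bp was 0.411 for 5hmC and 0.234 for uCG over 2014 pairs. The 5hmC values were lower at each longer distance until that beyond 100 and up to 200 bp (0.0949), while the uCG values lay between 0.119 and 0.148 from 6 to 500 bp. Neighbours share fragments, libraries and base composition, and these correlations are descriptions over CGs.

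**Figure D5:**
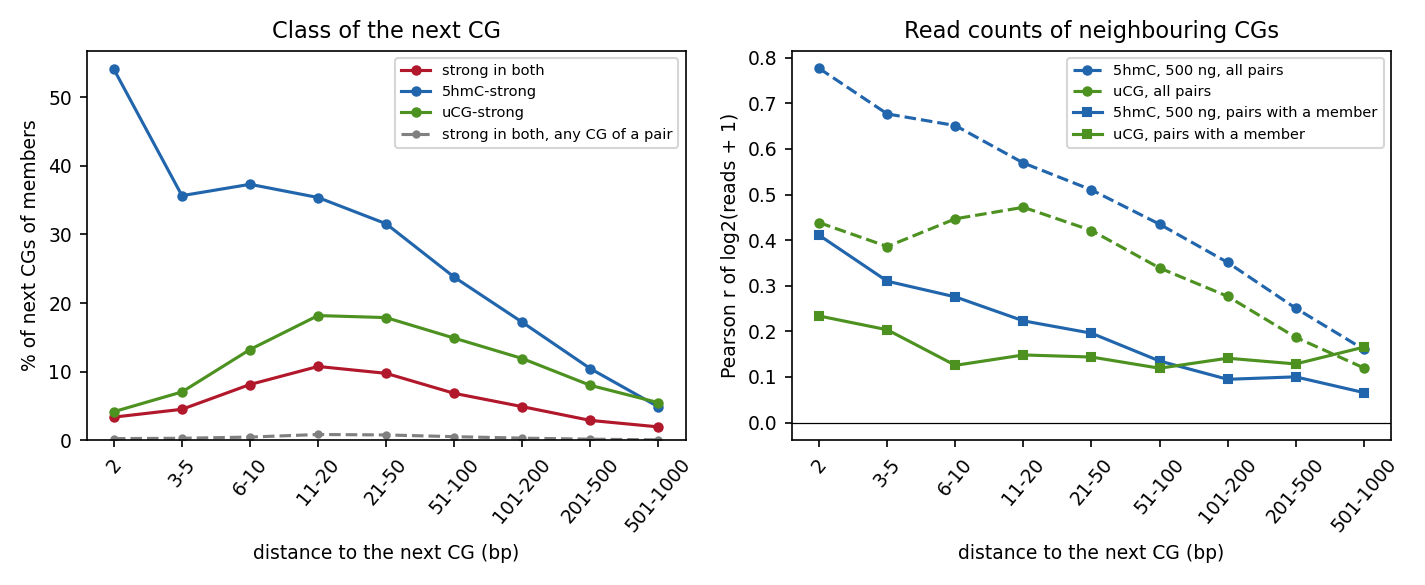
Left, the share of next CGs of a selected CG that were 5hmC-strong, uCG-strong or strong in both, by distance in bp, with the share strong in both over any CGs; right, Pearson r of log2(reads + 1) between neighbouring CGs over all pairs (dashed) and over pairs with a selected CG (solid). The share strong in both is 3.38% at 2 bp and highest, 10.8%, at 11 to 20 bp.

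Selected CGs were mostly single. Of them 84.7% had a CG on either side that was not selected, 12538 were in runs of 2 consecutive CGs and 485 in 111 runs of 4 or more, the longest of 7. Another selected CG within 50 bp was found for 17.97% ± 1.99 (SD, n = 19 autosomes), against 7.96% of 5hmC-only CGs with another of their class and 45.5% of uCG-only CGs. The size of the classes differs and moves these shares.

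Of 20807 autosomal protein-coding genes, 11916 (57.3%) had a selected CG in the body or the 2 kb upstream, 2070 had 10 or more and 75 had 50 or more. The median was 1. Together genes and upstream regions held 67.9% of selected CGs and 51.3% of all CGs. The number followed gene size, with a Spearman rho of 0.559 between selected and all CGs of a gene across 20807 genes, which are not independent.

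The 20 genes with most held 2730 selected CGs, or 2.76%. The largest number, 1044, was in Gm20388, a gene model of 4435 kb on chromosome 8 that contains Gse1 and its 231. The next was Sfi1, for a centrosomal protein, with 214 in 61.6 kb, and then Fgfr2, an FGF receptor, with 197 in a gene model of 2961 kb. RNA-binding and cytoskeletal genes followed, with 121 in Msi2, 104 in Sept9 (a septin) and 81 in Tns3 (a tensin). Transcription factor genes among the 20 were Camta1 (103), Zfhx3 (89), Zfp423 (85) and Nfic (82), and genes of signalling and adhesion were Pitpnc1 (97), Sh3pxd2a (94), Ephb2 (79) and Igsf21 (80). Rnf220, a ubiquitin ligase, had 94 and Macrod1, which removes ADP-ribose from proteins, 86. The last 3, Gm42416 (80), Gm37388 (78) and Gm37013 (78), are overlapping gene models that share 78 of them. In the other 17 genes most were intronic, for example 896 of 1044 in Gm20388, 221 of 231 in Gse1 and 96 of 97 in Pitpnc1, and in Gm42416 64 of 80 were exonic.

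Sfi1 stood apart. Its 214 selected CGs were 34.2% of its 626 CGs, where the median over 16679 genes with at least 100 CGs was 0.392% and the next highest share 15.0%. Their mean count was 39.2 and 38.6 reads in the 500-ng replicates, 29.1 and 29.3 in the 50-ng ones, 18.6 and 21.3 with 5 ng, and 32.1, 25.3 and 23.9 uCG reads. Over all selected CGs these means were 20.9, 19.6, 12.4, 11.7, 7.57, 7.73, 11.9, 9.46 and 8.10, so that Sfi1 was above the average in each of the 9 libraries. Of its selected CGs 22 (10.3%) lay in a word of 32 bases found more than once, against 1.48% of all selected CGs, and near-identical copies make its values uncertain. Control reads at 500 ng numbered 3, or 0.180 per 1000 labeled reads.

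In the other large genes the values were close to the average. The 231 selected CGs of Gse1 had a mean of 25.02 and 23.5 reads with 500 ng, 14.3 and 14.5 with 50 ng, and 12.1, 9.49 and 7.79 uCG reads. Those of Msi2 had 20.9 and 19.3, 11.1 and 12.1, and 11.7, 10.1 and 8.31. Nfic, in which 82 of 1202 CGs (6.82%) were selected, had 19.2 and 18.5, 11.8 and 10.1, and 11.7, 9.70 and 8.11.

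By share of CGs, small genes led after Sfi1. 4930404N11Rik had 21 of 140 CGs (15.0%), Klhdc7b 17 of 134 (12.7%), Spib, an Ets factor of B cells and dendritic cells, 19 of 160 (11.9%), and Slc11a1, a metal transporter of macrophages, 21 of 202 (10.4%). Lefty1, an inhibitor of Nodal that is expressed in mESCs, had 11 of 108 (10.2%), 8 of them in a shore. Hoxa6 had 11 of 120 (9.17%), 9 of them in a shore and 10 exonic, among them those printed above. Gm16181 (10 of 102), Ldhd, a D-lactate dehydrogenase (15 of 160), and Soat2, which esterifies cholesterol (21 of 231), completed the 10.

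Lists of genes with a role in mESCs were compared by counts. A selected CG was found in 57.3% of all protein-coding genes, whose median share was 0.224%, and selected CGs were 4.86 per 1000 autosomal CGs. The 4.86 includes CGs outside genes, while list rates count gene bodies and 2 kb upstream. Such sequence held 67279 selected CGs (67.9%) in 1.04e+07 CGs (51.3% of all), so that its own rate was above 4.86. Of 22 pluripotency genes 17 had a selected CG, and they held 160 in 8855 CGs (18.1 per 1000). The median share was 0.969%. Esrrb, an orphan nuclear receptor, had 58 selected CGs, 56 of them intronic, and Sall4, a zinc-finger factor, 27, of which 18 were in shores and 21 exonic. Nr5a2 had 15. Pou5f1, Sox2, Klf2, Dppa5a and Utf1 had none.

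Of 16 genes for enzymes and readers of DNA modification 13 had a selected CG, where 57.3% of all genes did (13.6 per 1000 against 4.86, median share 0.893% against 0.224%). Dnmt3a and Dnmt1, the de novo and the maintenance methyltransferase, had 32 and 22, and Tet1, the main TET enzyme of mESCs, 25. In Tet1 these had a mean of 20.6 and 20.5 reads with 500 ng, 12.9 and 11.2 with 50 ng and 10.4, 11.5 and 8.84 uCG reads. Apex1, Gadd45a and Mbd4 had none.

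Of 30 developmental regulators 27 had a selected CG, where 57.3% of all genes did (14.8 per 1000 against 4.86), with the highest median share of the 6 lists, 1.64%. The most were in Tbx5 (32), Pax6 (18) and Lhx2 (16), factors of heart and limb, of the eye and of the forebrain, and 14 of the 16 in Lhx2 were in shores. In Tbx5 the mean was 30 and 26.3 reads with 500 ng and 17.6 and 15.8 with 50 ng.

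Of 28 signalling genes 25 had a selected CG, where 57.3% of all genes did (10.3 per 1000 against 4.86, median share 1.17% against 0.224%). The most were in Fgfr2 (197), Tcf7l1, a repressor of the Wnt pathway (65), and Smad7, an inhibitor of TGF-beta signals (43). The Fgfr2 gene model, with 0.617% of its CGs selected, held 31921 of the 53529 CGs of this list and so lowers its rate. Among imprinted genes 18 of 22 were protein-coding gene models, and 14 of these had a selected CG, where 57.3% of all genes did. Their rate was 5.29 per 1000, against 4.86 over all autosomal CGs, those outside genes included. It was below the rate of all gene bodies and upstream regions (67279 in 1.04e+07 CGs). The median share was 0.322% against 0.224%, with the most selected CGs in Kcnq1 (25), Slc38a4 (15) and Gnas (12). Ribosomal protein genes had the lowest median share, 0%, with a selected CG in 10 of 22, where 57.3% of all genes had one, at 6.91 per 1000, and no more than 6 in a gene (Rps14). Rpl13 and Rpl3 had 4 each. The lists were chosen with earlier results of these data known and differ in gene length and number of CGs, and none of these differences was tested.

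Selected CGs were found on each autosome, at 1.78 per 1000 CGs on chromosome 14 to 8.91 on chromosome 11. Chromosome 14 had the lowest uCG coverage of the autosomes (2.19 reads per CG) and chromosome 11 the highest (4.60), and 5hmC-strong CGs were 2.51% and 5.56% of their CGs. The ratio of observed to expected ran the other way, at 8.88 on chromosome 14 and 4.64 on chromosome 11.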

How the data were processed

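Read counts were analysed for 15 libraries of E14TG2a DNA. For hmTOP-seq the authors kept reads of at least 80 nt that mapped to mm10 with a quality of at least 30, and counted reads with the same start and length once, which limits how high a count can go. The mapper, and these settings for uTOP-seq, are not given in the sources used here. The deposited counts are whole reads per CG without normalization, strands merged for hmTOP-seq and separate for uTOP-seq. The members, gene lists and rules were chosen with earlier results of these data known. Depth was 14884939 to 32502791 reads per labeled hmTOP-seq library and 20120568 to 28412885 per uTOP-seq library. Intervals and limits at 0 (3 counts) cover counting error only.

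Genes came from GENCODE mouse release 21 (20807 autosomal protein-coding genes, 56288 transcripts). CG islands were found in the GRCm38 sequence by length (200 bp or more), GC share (from 50%) and CG ratio, observed over expected (from 0.6), and numbered 15739. They started from segments whose score rises at each CG and falls elsewhere. Soft-masked bases counted toward length but not as GC or CG, so that islands and repeats are not independent. Repeats were the soft-masked sequence. Elements overlap. Odds ratios were taken per autosome after adding 0.5 to each cell, and averaged. Classes of CGs were compared over 19 autosomes by a two-sided permutation test that flips signs (100000 permutations, smallest p 1e-05), and p-values were adjusted by the Benjamini-Hochberg method over 55 tests, with a threshold of 0.05. The autosomes are parts of 1 genome, and the libraries are technical replicates. Named genes were the 20 with most members, the 10 with the largest share among genes with at least 100 CGs, and the 3 with most of each of 6 lists. Printed stretches were the richest within 300 bases that overlap no UTR. The steps were tested on simulated data. Alternatives were other read limits, scaling to the smallest library, both uCG strands, no repeats, other islands, transcripts and backgrounds, and leaving out each replicate. Values were computed with numpy 2.4.6 and pandas 2.3.3, intervals with scipy 1.17.1 and plots with matplotlib 3.10.9, all under Python 3.11.15.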

Additional observations from a re-analysis of the deposited data

Results flagged for a closer look

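Chromosome X was not part of the selection. On it 97 of 969469 CGs met the same limits, or 0.100 per 1000, above the 0.00309 per 1000 that a count of 0 allows and below the 4.86 per 1000 of the autosomes. Coverage there was lower as well, with 0.354 and 0.351 reads per CG at 500 ng and a uCG sum of 1.13, against 1.58, 1.55 and 3.46 on autosomes. Limits scaled to this coverage were not applied.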

How the results depend on the processing

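No paired analysis was possible because classes of CGs were compared within the same libraries, and no result comes from a test between groups of libraries. Some alternatives were chosen after seeing the data: equal 500-ng sums, expected numbers within classes, and the settings applied to comparisons with 5hmC-only and uCG-only CGs, to the island edge, to the GC share and to the joint occurrence. Of the values under these settings, 656 kept direction and side of the threshold, or, without a test, stayed within 1.5 times the count or 1 SD, 20 moved further, 5 gained and 9 lost the call, and 5 reversed. The number of selected CGs was 64173 with at least 12 5hmC reads, 191050 and 35909 with at least 15 and 30 uCG reads, 58967 with at least 5 uCG reads on each strand, and 87545 to 127782 with 1 replicate left out. The ratio of observed to expected was 8.86 at 12 reads and 5.20 to 6.51 with 1 replicate left out. Within classes of flanking bases, of CG and GC content, of both with repeats, of 100-kb windows, of 10-kb windows and of 100-kb windows with flanking bases it was 4.87, 3.32, 2.47, 3.52, 3.17 and 2.71. For 5' UTRs against all other CGs the odds ratio was 0.820 at 15 uCG reads, 0.888 with both strands, 0.787 without repeats and 0.759 with 1 transcript per gene, each past the threshold, and 0.893 to 1.05 with 1 replicate left out (0.893, past the threshold, without uTOP-seq replicate 3). Against covered CGs, 5' UTRs (1.90), introns (0.924) and islands (1.78) reversed. Introns without repeats had 1.04. Against 5hmC-only CGs, 3' UTRs lost the call at 12 5hmC reads (1.08), 30 uCG reads (1.11), with both strands (1.10) and without repeats (1.05), and exons (1.08) and downstream regions (1.11) without repeats. CG content against 5hmC-only CGs lost the call at 30 uCG reads (5.93 CGs for the selected CGs) and without uTOP-seq replicate 1, and reversed without either 500-ng replicate (5.67 and 5.71), in a range of 5.62 to 5.72. The share with another selected CG within 50 bp was 15.2% at 12 5hmC reads, 24.5% and 10.8% at 15 and 30 uCG reads, 10.7% with both strands and 15.97% to 19.4% with 1 replicate left out. It was 6.75% within 20 bp and 38.8% within 200 bp. By share of CGs, 1 of the 20 genes with most selected CGs stayed among the first 20. The cause of these shifts was not tested. Read limits on deeper libraries choose more CGs, and counts per CG give relative and not absolute levels of either mark.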
